A study of Mus musculus with 47 samples.

Results

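LMPP is 1 of 17 cell populations of adult mouse bone marrow whose expression profiles are compared here, and it is represented by 5 of 47 arrays. Its members are the arrays whose title opens with the word LMPP, an abbreviation that in common use stands for lymphoid-primed multipotent progenitor. RNA from 2000 purified cells per sample was amplified and hybridised to an Affymetrix mouse array. The other groups were PreB and MkE (4 arrays each), ETP, GMP, MkP, ProE, CFUE and PreCFUE (3 each), and LTHSC, STHSC, GM, CLP, ProB, IgM+SP, CD4 and NKmature (2 each). All came from the strain C57Bl6, with no treatment or altered gene named for any group. The labels spell out none of the names, give no sorting markers and no age beyond adult, and do not say whether animals were pooled. Arrays within a group are labelled as biological replicates without naming animals, so p-values measure only the spread between these samples. The labels do not say whether the close LMPP pairs described below share animals or RNA. If they did, fewer than 5 LMPP samples would be independent and the standard errors would be too small.

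Multipotent progenitors of this kind descend from haematopoietic stem cells and are known for giving rise to lymphocytes and to granulocytes and macrophages, with little output of red cells and platelets. They carry the tyrosine kinase receptor Flt3 and transcribe, ahead of commitment, some genes of more than 1 later lineage. Dntt, the terminal transferase that adds nucleotides at rearranging antigen receptor genes, and Cd34, a surface sialomucin of immature cells, are commonly used beside Flt3 to mark them.

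All levels below are log2 of the deposited intensity, so a difference of 1 is 2-fold. A difference is LMPP minus the other side, ± its standard error in a limma model of the 47 arrays together, and p-values are limma's, adjusted by the Benjamini-Hochberg method over the 13948 genes tested. A gene is called where the adjusted p is under 0.05 and the difference at least 2-fold. Levels under 3.889, the median of all values, are dim. In sorted populations measured in bulk, fewer expressing cells and less RNA per cell cannot be told apart.

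The 5 LMPP arrays did not form 1 tight set. Replicates 1 and 2 correlated at 0.988 over the tested genes and replicates 4 and 5 at 0.991, while every other pair lay between 0.952 and 0.965. Between replicates 4 and 5, 55 genes differed at least 2-fold, and between replicates 2 and 5, 1574 did. Replicates 1 and 2 had their closest array of another group in STHSC replicate 2 (0.969 and 0.971), and replicates 3 to 5 had theirs in GM replicate 2 (0.961 to 0.968). Sex-linked transcripts divided the same arrays. Xist, the X-inactivation RNA, was at 4.03, 3.89, 9.12, 10.45 and 10.54 in replicates 1 to 5, and the Y-linked Eif2s3y at 8.01, 8.43, 7.35, 6.90 and 6.89. Replicates 1 and 2 thus carried Eif2s3y alone and replicates 3 to 5 carried both. Among all arrays, 21 had Xist alone, 19 Eif2s3y alone and 7 both. GM, MkE, MkP, PreCFUE, CFUE, ProB and CD4 had Xist alone on all arrays, and no LMPP array was in that class. In those comparisons whatever goes with this class cannot be told apart from the group. Only PreB, ETP and LMPP held arrays of more than 1 class. Where the class was a block in the model, its offsets rest on those groups. Xist alone was set against Eif2s3y alone within PreB only, and the split of the LMPP arrays enters the offset of arrays with both. For groups with Xist alone, values under that block thus extend the PreB difference to other cells. Both ProB arrays also carried NK and plasmacytoid dendritic cell genes. The mean level of the NK list was 8.75 and 8.97 there against at most 6.06 on arrays other than ProB and NKmature. List counts that moved by over 1.5 times without ProB are given with and without it.

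The markers placed LMPP among the groups highest in all 3. Flt3 was at 10.76, 10.56, 10.18, 10.63 and 10.64 in replicates 1 to 5. The values were even across the arrays, and the LMPP mean was the second of the 17 groups. CLP had a mean of 10.86, above LMPP by less than the spread of the LMPP arrays, LMPP exceeded GM by 0.56 ± 0.34, ProB was at 8.96, STHSC at 8.91, ETP at 8.12 and LTHSC at 7.45. Against the equal-weight mean of the other 16 groups the difference was 3.70 ± 0.19 (adjusted p = 5.82e-18), and Flt3 was called higher than in 14 groups, all but CLP and GM. The call against STHSC (1.65 ± 0.34) was lost without STHSC replicate 2 (1.24).

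Dntt was at 12.47, 12.47, 11.63, 13.00 and 12.99 in LMPP replicates 1 to 5. Replicate 3 was the lowest, and these levels overlapped those of CLP (mean 13.25), ETP (12.72) and GM (11.96). The difference from the mean of the other groups was 4.75 ± 0.24 (adjusted p = 4.05e-18). Its other probe sets differed by 5.21 and 4.15. PreB had a mean of 9.28, LTHSC of 8.16 and STHSC of 7.67, all below every LMPP array.

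Cd34 was at 11.59, 11.58, 10.54, 11.23 and 11.23. LMPP had the highest group mean, 0.04 above GM (11.19), which is within the spread of the LMPP arrays. STHSC followed at 10.89, ETP at 9.75, LTHSC at 9.26, GMP at 8.56 and CLP at 8.53, and the other 10 groups lay between 3.19 and 6.65. Against the mean of the other groups Cd34 differed by 5.12 ± 0.14 (adjusted p = 1.3e-26). The 3 markers were thus well above the dim range on every LMPP array, and none of them was called between LMPP and GM.

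**Figure D1:**
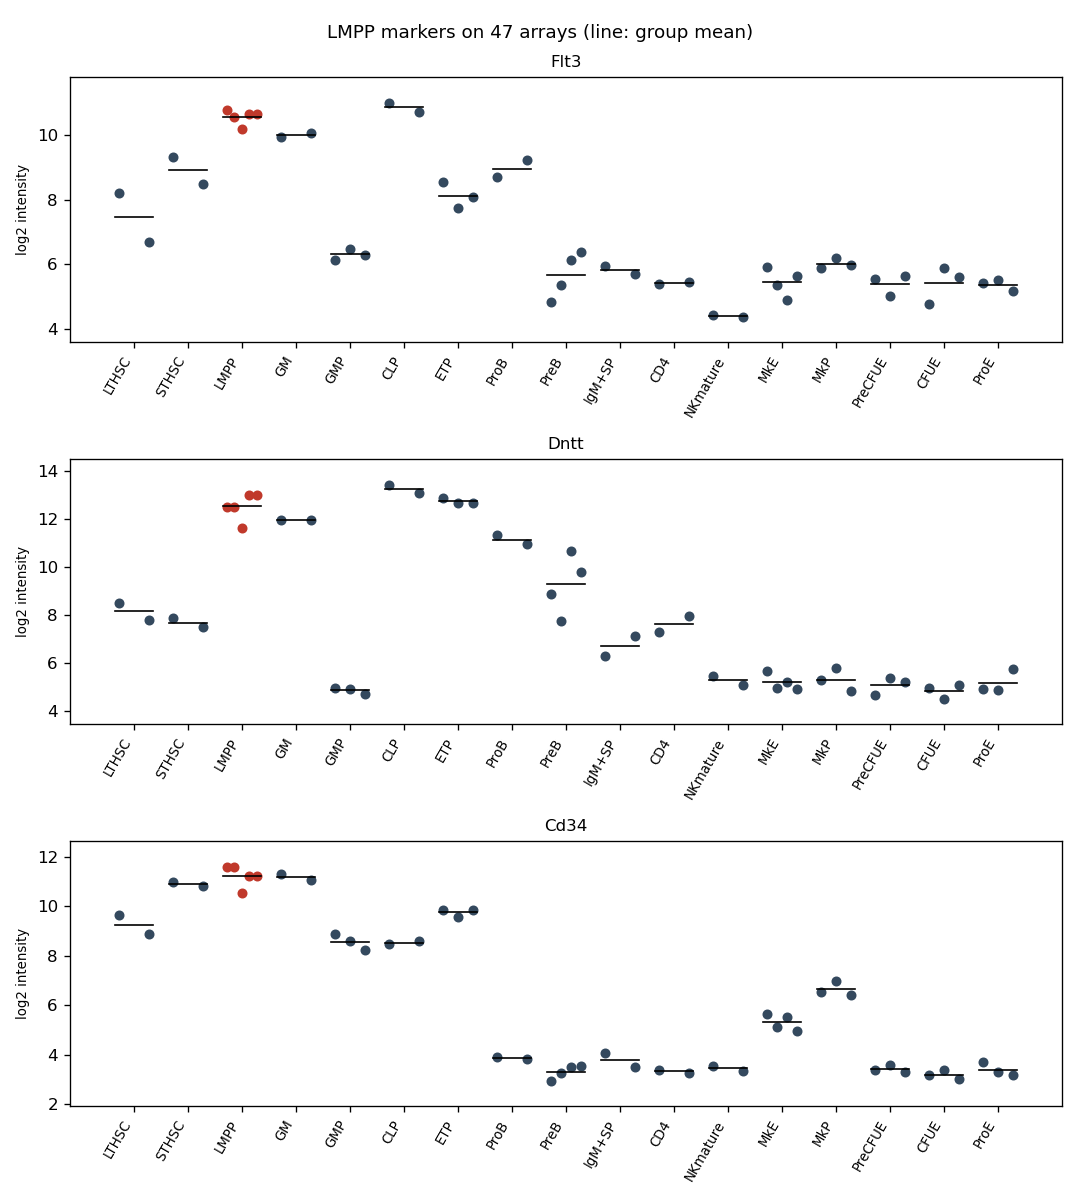
Log2 intensity of Flt3, Dntt and Cd34 (vertical axes) on each of the 47 arrays, grouped by population along the horizontal axis, with a line at each group mean. The 5 LMPP arrays lie between 10.18 and 10.76 for Flt3, and CLP, GM and ETP reach or overlap LMPP in at least 1 panel.

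Few genes set LMPP apart from every other group. Of the 13948 genes tested, 4 were called higher in LMPP than in each of the 16 other groups (0.0287%) and 1 was called lower than in each (0.00717%). The same count of highest genes ran from 1 in PreCFUE to 200 in NKmature, and was 2 in GM and 2 in STHSC. Genes whose 5 LMPP arrays all lay above the 42 other arrays numbered 5 (0.0358%), and 1 gene had all 5 below (0.00717%). These counts stayed at 4, 1, 5 and 1 with both ProB arrays left out. LMPP had 5 arrays and the other groups 2 to 4, so such counts are not on equal terms between groups. With LMPP replicates 1 and 2 only, 58 genes lay above and 11 below all 42 others. GM, with 2 arrays, had 29 above and 10 below all arrays of other groups, and STHSC, also with 2, had 29 and 73.

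Ddx4, an RNA helicase known from germ cells, stood furthest out. It was at 8.12, 6.17, 6.76, 8.63 and 8.49 in LMPP replicates 1 to 5, against 2.27 to 5.59 on the 42 other arrays. Every LMPP array lay above every other array, with replicates 2 and 3 the lowest of the 5. The nearest other array was GM replicate 1, GM had a mean of 5.19, ProE of 4.85, ETP of 4.25 and CFUE of 4.22, and STHSC and LTHSC were dim at 2.76 and 2.59. The margin over GM was 2.45, the largest of the 16 adjusted p-values was 0.000192, and the difference from the mean of the other groups was 4.46 ± 0.24 (adjusted p = 1.84e-17).

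Wfdc17 and Wfdc18 encode small secreted proteins with the WAP domain, a fold of protease inhibitors. Wfdc17 was at 8.24, 8.58, 7.80, 9.70 and 9.73 in LMPP, and the other arrays ran from 4.19 to 6.83. Replicates 4 and 5 were the highest, and the groups did not overlap. GM was next at 6.8, then CLP at 6.08, and the margin over GM was 2.01 (largest adjusted p of the 16, 5.63e-05). Wfdc18 was at 6.31, 5.94, 5.16, 7.34 and 7.63, and the other arrays ended at 5.10 in CLP replicate 1. Replicate 3 cleared that array narrowly, and replicates 4 and 5 were again the highest. Its margin over CLP was 1.39 (largest adjusted p 0.000982), and the call was lost with LMPP replicates 1 to 3 only (0.71) and with the replicate number as a block (0.99). The Wfdc18 probe set carries the suffix by which Affymetrix marks a match to several transcripts, so part of its signal could belong to a related gene.

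Both Wfdc genes lie side by side on chromosome 11. Their promoters, 250 bases before to 50 after the RefSeq start in GRCm38.p6, are shown because these neighbours were the pair highest in LMPP of all groups. Wfdc17 is taken from chr11:83703806-83704105 and Wfdc18 from chr11:83708754-83709053, both on the plus strand, with the Ets core AGGAAG in capitals where it reads on the minus strand.
Wfdc17: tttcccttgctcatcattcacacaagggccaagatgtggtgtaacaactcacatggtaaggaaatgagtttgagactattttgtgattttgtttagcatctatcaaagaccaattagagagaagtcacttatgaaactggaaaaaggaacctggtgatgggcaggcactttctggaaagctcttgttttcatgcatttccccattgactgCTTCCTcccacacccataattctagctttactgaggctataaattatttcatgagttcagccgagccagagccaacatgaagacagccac
Wfdc18: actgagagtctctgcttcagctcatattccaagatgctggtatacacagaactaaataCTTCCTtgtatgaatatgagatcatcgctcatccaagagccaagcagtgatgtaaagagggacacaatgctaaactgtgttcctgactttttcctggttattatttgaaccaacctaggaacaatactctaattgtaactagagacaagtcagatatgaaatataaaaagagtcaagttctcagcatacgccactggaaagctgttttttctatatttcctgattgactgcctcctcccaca
Each window held 1 match to AGGAAG over both strands, a motif found in 35.4% of the 32851 promoters listed. The E-box CANNTG (72.3% of promoters) had 1 match in Wfdc17 and 0 in Wfdc18, the Runx core TGTGGT (16.8%) 1 and 0, and the GATA motif AGATAA (11.2%) 0 and 0. In the Ddx4 window the E-box matched 1 time and the other motifs 0 times. Both strands were read, and no motif contains another. A match describes letters and shows no binding.

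In gene order Wfdc17 follows a row of CC chemokine genes, which encode attractants of leukocytes, and some of them were also high in LMPP. Ccl9 was at 9.65, 10.63, 9.64, 9.67 and 9.56, with replicate 2 the highest, and differed from the mean of the other groups by 3.68 ± 0.23. GM was at 11.78. Ccl3 was at 11.29, 10.97, 9.86, 5.66 and 5.52, so replicates 4 and 5 were low, and differed by 3.77 ± 0.52. Ccl4, directly before Wfdc17, differed by 1.06 ± 0.25 (adjusted p = 0.00102). Ccl6, between Ccl3 and Ccl9, gave 0.60 ± 0.29 and was not called. After Wfdc18, Wfdc21 gave -0.40 and Heatr6 -0.20, and neither was called. High levels in LMPP thus held for some neighbours of this row and not for others.

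Postn, the secreted matrix protein periostin, was at 6.78, 5.27, 5.74, 6.67 and 6.66 in LMPP. The other arrays ran from 3.90 to 4.87, highest in IgM+SP replicate 1, so the groups did not overlap and replicate 2 came closest. The margin over IgM+SP (4.54) was 1.68, with the largest adjusted p of the 16 at 9.51e-06. The fifth gene with all LMPP arrays on top was the uncharacterised RIKEN clone 9030619P08Rik, named here after its values were seen. It was at 8.87, 8.83, 8.71, 8.34 and 8.59, the nearest array was ETP replicate 2 at 8.15, and it was called higher than in 15 groups. The calls of Ddx4, Wfdc17 and Postn above all 16 groups held under every alternative run.

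At the other end, Tnk2, a non-receptor tyrosine kinase, was lowest in LMPP. It was at 5.61, 5.47, 6.07, 5.21 and 4.79, and the other arrays ran from 6.51 in CLP replicate 1 to 10.92 in NKmature replicate 2. The groups did not overlap. LTHSC was nearest at 6.70, a margin of -1.27 (largest adjusted p of the 16, 0.00805), and the difference from the mean of the other groups was -3.26 ± 0.20. The call against all 16 groups was lost without CLP replicate 2 (-1.08), GM replicate 2 (-1.27) or LTHSC replicate 2 (-1.17), with probe set means (-0.78), with the replicate number as a block (-0.90), and with LMPP replicates 1 and 2 (-1.16) or 1 to 3 only (-0.99). When the sex class was a block the margin turned to 0.48, above the lowest other group.

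**Figure D2:**
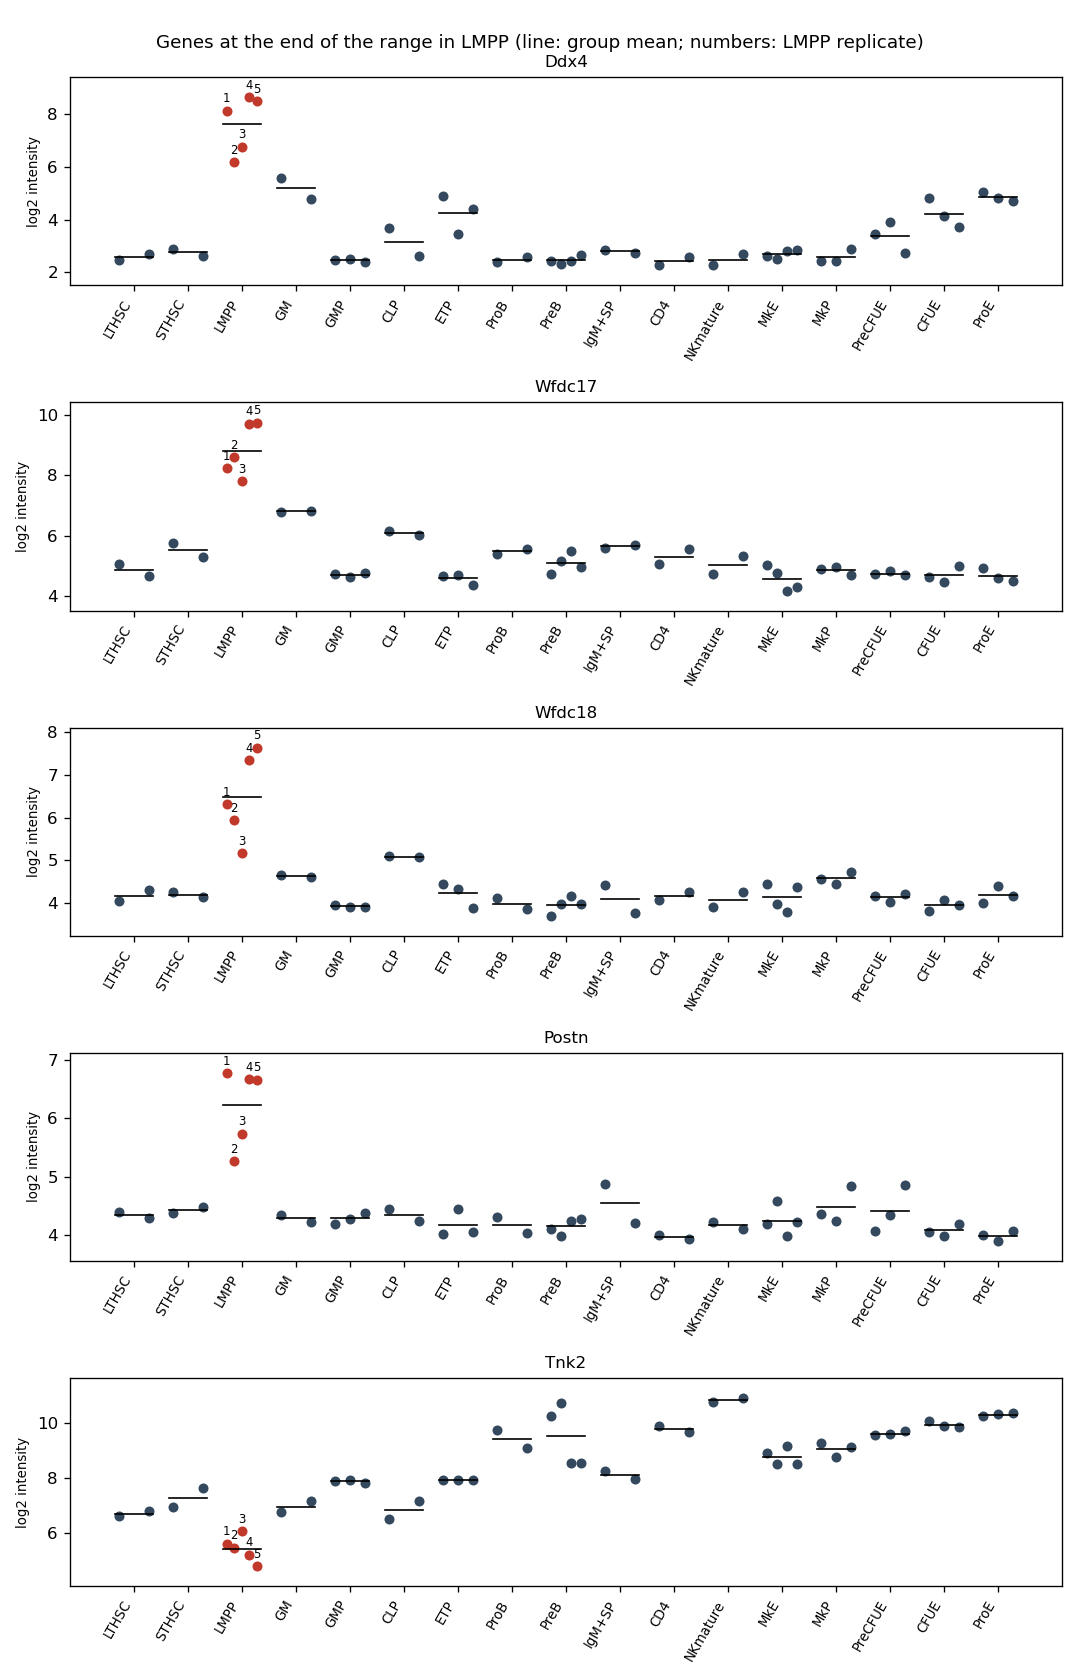
Log2 intensity (vertical axes) of Ddx4, Wfdc17, Wfdc18, Postn and Tnk2 on each of the 47 arrays by population, with LMPP points marked by replicate number. All 5 LMPP points lie above the other 42 in the first 4 panels and below them for Tnk2, where LTHSC at 6.70 is the nearest group mean.

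Outside these genes the mean of the 5 LMPP arrays was rarely an extreme. The other groups are means of 2 to 4 arrays, so the counts are not on equal terms. Its group mean was the highest of the 17 for 88 genes and the lowest for 98, against 233 (GM) to 1896 (CLP) highest and 166 (MkE) to 2384 (CLP) lowest in the other groups. The median margin of the 88 over the next group was 0.11, and 5 of them had a margin of at least 2-fold. In 5 of the 88 all LMPP arrays lay above the 42 others, in 10 exactly 4 did, and in 11 none did. The next group was most often STHSC (14 genes), GM (13), CLP (13), ETP (9) or LTHSC (8). Below, STHSC was the next group for 25 of the 98, and in 27 of the 98 no LMPP array lay under all others.

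Near misses included genes with 1 or more arrays inside the range of the rest. Rnf150, a RING finger protein, was at 6.13, 6.02, 6.29, 6.40 and 6.08 against at most 6.09 in MkP replicate 1. Basp1, a membrane-bound signalling protein, was at 9.74, 9.31, 9.30, 9.50 and 9.42 against 9.33 in LTHSC replicate 2. Both overlapped only that 1 group.

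Against the equal-weight mean of the other groups, 517 genes were called higher in LMPP (3.71% of those tested) and 270 lower (1.94%). A called higher gene passed the test against a median of 9 single groups, and 229 of the 517 were also called lower than in some group. LMPP had the highest mean of all groups for 40 of the 517 and the lowest for 17 of the 270.

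Among genes whose LMPP arrays did not overlap those of at least 14 groups, the largest rises beyond the genes above included Gcnt2, Hlf, Il1r1 and Procr. Gcnt2, an enzyme that branches glycans, was at 9.93, 9.91, 9.68, 10.11 and 10.13, even across the arrays and below only LTHSC (10.27). It differed by 4.67 ± 0.23 (adjusted p = 2.19e-18), and its 8 probe sets ran from -0.01 to 4.67. Hlf, a transcription factor of stem cells, was at 9.54, 9.16, 9.97, 9.34 and 9.06 against 11.04 in LTHSC, 9.72 in STHSC and 8.61 in GM. It differed by 3.85 ± 0.12 (adjusted p = 4.6e-24). Il1r1, the interleukin 1 receptor, was at 9.92, 10.08, 8.47, 8.78 and 8.56, and ETP came next at 8.74. Replicates 1 and 2 were above and the other 3 around the ETP level, and the gene was called higher than in 15 groups (3.32 ± 0.19 against the mean). Procr, the protein C receptor of stem cells, was at 6.94, 7.22, 8.60, 6.52 and 6.80, far below LTHSC (10.31), and differed by 2.79 ± 0.20.

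Other genes of this kind reached their highest level in CLP, ETP or GM. Mn1, a transcriptional coregulator, was at 7.01 to 8.69 in LMPP and 9.64 in CLP (3.09 ± 0.20). Sh2d5, an SH2 domain protein, was at 8.49 to 9.08, below its mean in CLP (3.00 ± 0.15). Sstr2, a somatostatin receptor, was at 6.33 to 7.95 and 7.52 in ETP (2.82 ± 0.17), and Msrb3, a methionine sulfoxide reductase, at 5.88 to 7.20 and 6.81 in ETP (2.83 ± 0.14). Acot1, an acyl-CoA thioesterase, was at 6.30 to 7.34 and 7.21 in GM (2.87 ± 0.13). In each of the last 3, LMPP overlapped the group named and was second.

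The largest falls of this kind reached a low level that CLP or STHSC came close to. Cnr2, a cannabinoid receptor of immune cells, was dim at 2.35, 2.81, 3.20, 3.02 and 3.20 against 8.48 in IgM+SP, and CLP was as low at 2.94 (-2.45 ± 0.17 against the mean). Sec24d, a coat protein of vesicles leaving the endoplasmic reticulum, was at 5.42 to 6.13 against 9.9 in ProB (-1.87 ± 0.17). Chd7, a chromatin remodeller, was at 2.92 to 3.27, all dim, against 7.95 in NKmature (-1.65 ± 0.14). Daam1, a formin, was at 4.51 to 5.08 against 9.8 in ProE (-1.99 ± 0.19), a call that was lost with probe set means (-0.75). LMPP had the lowest mean of the 17 groups in all 4.

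**Figure D3:**
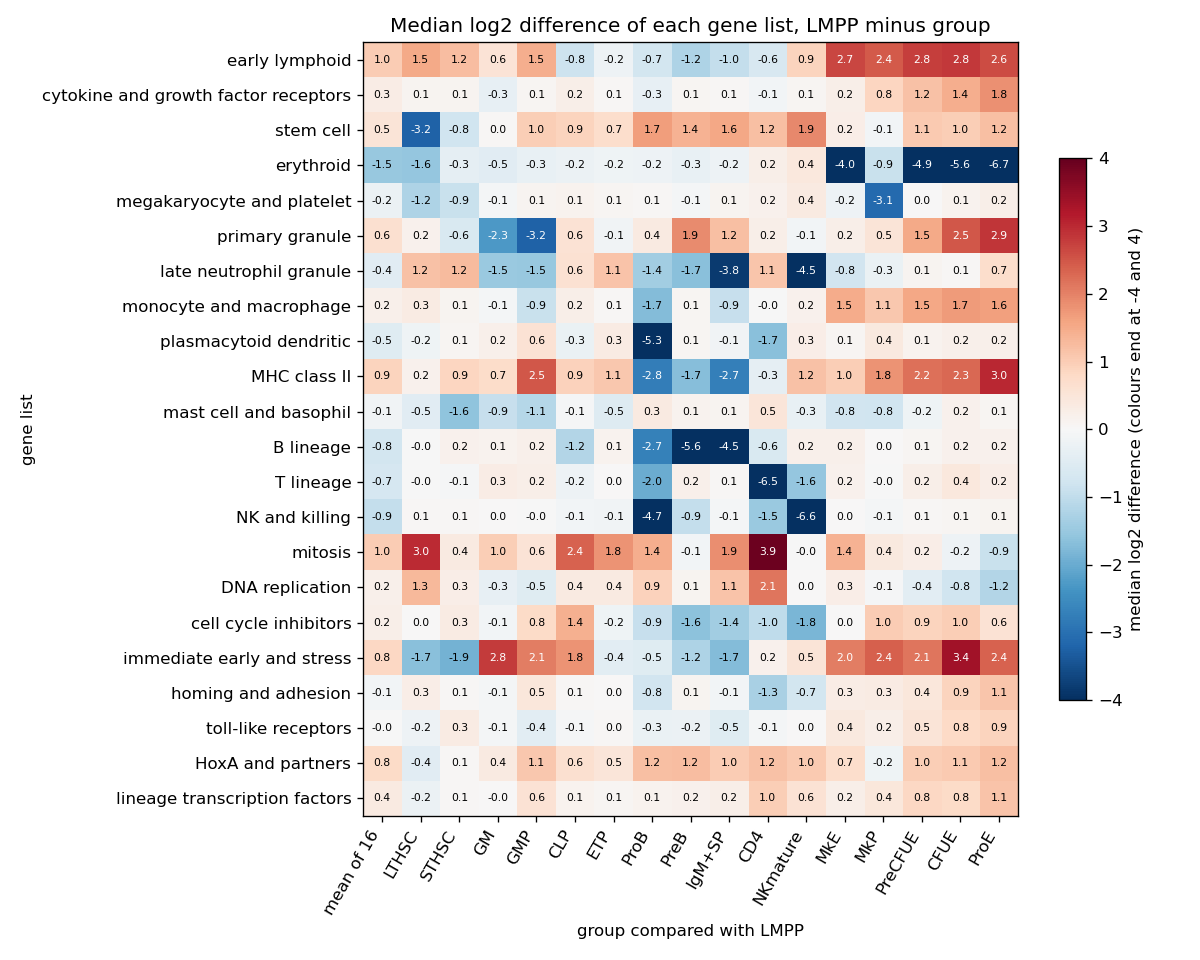
Median log2 difference of the tested members of 22 gene lists (vertical axis), LMPP minus the mean of the other groups and minus each of the 16 groups (horizontal axis), with colours ending at -4 and 4. The erythroid list is lowest against ProE (-6.74), CFUE and PreCFUE, the B, T and NK lists against the mature lymphocyte groups, and the column of GM is the palest but for the granule and immediate early lists.

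Of the early lymphoid list, 8 of 15 tested members were higher in LMPP than in the mean of the other groups and 1 was lower, with a median of 1.02 against -0.01 over all genes. Notch1, the receptor that directs T lineage choice, was at 10.51, 10.28, 10.03, 10.69 and 10.58. These were even across the arrays and lay below ETP (12.24), for a difference of 1.93 ± 0.16. Satb1, a chromatin organiser of lymphoid cells, was at 10.19 to 11.33 (2.77 ± 0.20) and Btla, an inhibitory receptor, at 7.20 to 8.92 (1.79 ± 0.24). For both, replicates 4 and 5 were the highest. Il12a, a cytokine subunit, went the other way, at 8.10, 8.19, 5.32, 6.17 and 6.82 (1.90 ± 0.24). Lsp1, a leukocyte cytoskeleton protein, was at 9.18 to 9.71 (1.18 ± 0.17).

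Genes that act at the start of antigen receptor rearrangement were uneven on the LMPP arrays. Il7r, the interleukin 7 receptor of lymphoid progenitors, was at 5.76, 4.72, 3.94, 8.44 and 8.80. Rag1, a subunit of the recombinase, was at 3.67, 3.01, 2.87, 5.15 and 5.30. Both were high on replicates 4 and 5 and lowest on replicate 3, and neither was called against the mean (-0.43 and -0.24). Rag2, the partner of Rag1, differed by 1.02 ± 0.21, a call that was lost without LMPP replicate 4 (0.76) or 5 (0.84). Ly6d, a surface protein of B-biased lymphoid progenitors, was low at 3.77 to 4.40 (-1.17 ± 0.24), a call lost with ProB left out (-0.80). The list had 7 higher and 2 lower members without LMPP replicate 5, and 7 and 0 with ProB left out. With LMPP replicates 1 and 2 only it had 7 and 3 (median 0.71), and with replicates 1 to 3 only 7 and 4 (median 0.44).

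Among 22 cytokine and growth factor receptors, 6 were higher and 0 lower, with a median of 0.30. Besides Flt3 and Il1r1 they included Csf3r, the receptor of granulocyte colony-stimulating factor, at 7.48, 7.32, 6.65, 6.13 and 6.33. Replicates 1 and 2 were highest and the group overlapped STHSC (7.12), with a difference of 2.15 ± 0.18. Kit, the stem cell factor receptor, was at 9.51, 10.05, 8.79, 9.38 and 9.24, sixth of the groups (1.77 ± 0.25). Il6ra, an interleukin 6 receptor chain, was at 6.44 to 7.20, below GM (8.07), and differed by 1.97 ± 0.24. Csf2rb, the beta chain of the granulocyte-macrophage receptor (0.83), and Il3ra, a chain of the interleukin 3 receptor (-0.20), were not called. With the sex class as a block the calls of Kit (0.95) and Il6ra (0.96) were lost, and 3 receptors were higher and 3 lower. The count was 5 higher and 2 lower with LMPP replicates 1 and 2 only and with the replicate number as a block.

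Of 21 stem cell genes, 9 were higher and 2 lower, with a median of 0.50. Meis1, a homeobox partner of the Hox proteins, was at 9.51 to 10.03, below LTHSC (11.38), and differed by 3.15 ± 0.17. Mecom, a zinc finger factor of stem cells, was at 6.24, 6.12, 8.35, 8.0 and 7.90, with replicates 3 to 5 above replicates 1 and 2 and LTHSC at 9.40. It differed by 2.65 ± 0.22, a call lost with probe set means (0.86). Angpt1, a growth factor that signals through Tek, was at 9.18 to 10.16 (2.38 ± 0.17). In contrast, Slamf1, the SLAM receptor of long-term stem cells, was dim at 3.16 to 3.54 (-1.14 ± 0.12) and Vwf, the von Willebrand factor, at 2.38 to 3.43 against 11.19 in MkP (-2.03 ± 0.24). Gata2 was in between at 6.76 to 7.64 and was not called (-0.03). The call of Slamf1 was lost with probe set means (-0.59) and the sex class block (-0.72).

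Erythroid genes were low in LMPP, where 0 of 16 were higher and 13 lower, with a median of -1.52. Car1, a red cell carbonic anhydrase, was at 3.32 to 4.47 against 13.44 in CFUE (-3.54 ± 0.29, adjusted p = 2.39e-12). Aqp1, a water channel of red cells, was dim at 3.13, 3.15, 3.16, 3.63 and 3.26 against 11.06 in ProE (-2.85 ± 0.21). Klf1, the master regulator of globin and other red cell genes, was at 4.68 to 5.31 against 12.08 in ProE (-2.40 ± 0.25), and Gata1 at 5.27 to 5.86 against 11.58 (-2.27 ± 0.16). The LMPP arrays were even, and the list mean was 4.73 to 4.90 on them, against 4.34 to 4.40 in NKmature and 10.99 to 11.04 in ProE.

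Megakaryocyte genes divided. Of 16, 3 were higher and 4 lower, with a median of -0.23. Itgb3, the platelet integrin beta chain, was lower at 3.85 to 4.86 against 9.82 in MkP (-1.90 ± 0.20), and Itga2b, its partner, at 4.89 to 6.13 (-1.17 ± 0.15). Plek, a signalling protein of platelets and leukocytes, was higher (1.74 ± 0.21) and so was Nfe2, a factor of platelet formation, at 8.39 to 8.57 (1.24 ± 0.19). The 2 lower of 7 mast cell and basophil genes were Cpa3, a granule protease (-1.84 ± 0.17), and Slc18a2, a monoamine transporter (-1.45 ± 0.20). Nfe2 lost its call under the sex class block (0.39), and Plek with probe set means (0.94).

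Genes of granulocytes and monocytes were counted by stage. Of 8 primary granule genes, 4 were higher and 0 lower, with a median of 0.64, while 0 of 11 late neutrophil genes were called either way, with a median of -0.44. Mpo, the peroxidase of primary granules, was at 11.16, 11.45, 10.66, 10.82 and 10.79, above ETP (10.68) on average and below GMP (13.82), GM (13.06) and STHSC (11.35). It differed by 3.15 ± 0.43. Prtn3, proteinase 3, was at 9.84 to 11.48 (2.59 ± 0.27) and Ctsg, cathepsin G, at 7.61 to 10.20 (2.09 ± 0.32), both highest on replicate 2. Elane, neutrophil elastase, was at 4.60 to 5.20 against 8.46 in GMP and was not called (-0.55). The late neutrophil count depended on the setting, with 6 lower for LMPP replicates 1 to 3 only, 10 with the sex class as a block (median -3.46) and 5 with the replicate number as a block (median -1.55). The levels of these genes differed between the LMPP arrays, as given further on.

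Of 16 monocyte and macrophage genes, 5 were higher and 2 lower, with a median of 0.21. Ctss, the cathepsin that trims class II ligands, was at 9.97 to 11.18 and highest on replicates 4 and 5 (1.88 ± 0.17). Cybb, the phagocyte oxidase, was lower at 2.95, 3.45, 2.90, 5.60 and 5.88 (-1.51 ± 0.29), dim on 3 arrays only. With ProB left out 6 were higher and 1 lower. Without LMPP replicate 1, 2 or 3 the lower members numbered 1, and Mpeg1, the macrophage perforin (1.75 ± 0.52), lost its call without LMPP replicate 4 (1.38) or 5 (1.43). With the sex class as a block Csf1r, the macrophage growth factor receptor (1.21 ± 0.35), turned to -0.25 and Lyz2, lysozyme (1.45 ± 0.42), to -0.54.

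Of 9 MHC class II genes, 4 were higher and 0 lower, with a median of 0.90. H2-Aa, a class II chain, was at 9.73, 8.58, 9.30, 10.68 and 10.55 (1.40 ± 0.31), and H2-Ob, a regulator of peptide loading, at 9.18, 8.99, 9.40, 7.45 and 7.25 (1.28 ± 0.26). Replicates 4 and 5 were thus the highest for H2-Aa and the lowest for H2-Ob. The count was 2 with LMPP replicates 1 and 2 or 1 to 3 only and 2 with probe set means. Among 12 Toll-like receptor genes 1 was higher, Tlr7, a sensor of single-stranded RNA, at 5.23 to 6.33 against 7.0 in ProB (1.49 ± 0.19). Without LMPP replicate 1, 2 or 3 this count was 2, and Tlr7 lost its call with probe set means (0.49).

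Most genes of committed lymphocytes were not called, and those that were called were lower. Of 16 B lineage genes 5 were lower, of 14 T lineage genes 2, and of 13 NK and killing genes 6, with medians of -0.75, -0.66 and -0.95 and 0 higher in each. Pou2af1, a B cell coactivator, was dim at 2.38 to 2.70 against 11.87 in PreB (-1.89 ± 0.17). Ebf1, the factor that opens the B programme, was dim at 2.55 to 3.02 against 12.04 in IgM+SP (-1.75 ± 0.25), a call lost with probe set means (-0.88). Cd2, a T and NK adhesion receptor, was at 2.6 to 3.21 against 11.09 in CD4 (-2.19 ± 0.14). Mean list levels on the 5 arrays were 4.16 to 4.58 for B, 4.10 to 4.22 for T and 3.87 to 4.05 for NK genes. With ProB left out 2 NK genes were lower, and without LMPP replicate 1 the T lineage count was 1. Spib, a factor of B and plasmacytoid dendritic cells, was lower (-1.54 ± 0.14), 1 of 2 lower members of 7 plasmacytoid genes, while Tcf4, the E protein of that lineage, was higher (1.33 ± 0.14). With ProB left out 1 plasmacytoid gene was lower, and Tcf4 lost its call with probe set means (0.94).

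LMPP stood above the mean of the other groups in genes of cell division, but not above every group. Of 18 mitosis genes 10 were higher and 0 lower, with a median of 1.03, and LMPP was among the top 3 groups for 6. Against ProE 1 was higher and 7 lower (median -0.89), where 14.8% of all genes were lower. Against CFUE 2 were higher and 1 lower (median -0.2). Against PreCFUE and MkP 2 were higher and 0 lower (medians 0.25 and 0.38), near the 8.9% and 8.12% of all genes. Cep55, a protein of the final abscission, was at 9.06, 9.22, 8.01, 9.37 and 9.55, with replicate 3 the lowest (2.46 ± 0.24). Kif20a, a kinesin of the same step, was at 7.26 to 8.19 (1.44 ± 0.29), and Nusap1, a spindle protein, at 9.21 to 9.96, second after PreB (10.04), with a difference of 1.61 ± 0.20. Of 21 DNA replication genes none was called, with a median of 0.19. The mitosis count was 3 with probe set means, where Nusap1 lost its call (0.97), 5 with the 42 other arrays weighted equally and 16 when the sex class was blocked, where 8 replication genes were higher.

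Of 50 lineage transcription factors 21 were higher and 8 lower, with a median of 0.36. Hoxa9, a homeobox factor of immature cells, was at 11.06, 10.88, 11.14, 11.76 and 11.86, second after ETP (12.25), and differed by 3.16 ± 0.24. It and Meis1 were the 2 higher of 7 genes of the HoxA group and partners. Spi1, which encodes PU.1, was at 7.75, 7.78, 6.74, 6.77 and 6.74 (1.42 ± 0.19), highest on replicates 1 and 2 and at the level of STHSC (7.21). Lmo2, a bridging protein of stem cell factors, was at 11.50 to 12.34 (2.23 ± 0.17), Erg, an Ets factor, at 8.64 to 9.73 (2.89 ± 0.21), and both were highest in LTHSC. Mef2c (1.79 ± 0.16), a lymphoid and megakaryocytic factor, Hhex (1.36 ± 0.15), Sox4 (2.10 ± 0.21) and the Ets factor Etv6 (1.61 ± 0.14) were also higher. Zfpm1, the Gata1 partner Fog1, was lower at 5.64 to 6.52 against 9.95 in MkP (-1.73 ± 0.19). Ikzf1, which encodes Ikaros, was at 10.30 to 11.04 and not called (0.14), nor was Runx1 at 8.36 to 8.69 (0.15).

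The homing and adhesion list (1 of 18 higher, Cd48 at 1.30 ± 0.30) and the cell cycle inhibitors (1 of 11 higher and 1 lower) moved little, with medians of -0.11 and 0.23. Cd48 was at 9.95 and 10.33 on replicates 1 and 2 against 8.59 to 8.69 on the others, and its call was lost with replicates 3 to 5 only (0.70). The lower inhibitor was Rb1, the retinoblastoma protein, at 5.90, 5.63, 7.37, 6.83 and 7.17 (-1.42 ± 0.18), a call lost with replicates 3 to 5 only (-0.88). The higher inhibitor count was 2 when any 1 of 16 arrays was left out, none of them an LMPP array, and also 2 with ProB left out.

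LMPP was closest to GM and STHSC by number of differing genes and furthest from ProE. Against GM 601 genes were called in either direction and against ProE 3855. The correlation of group means over the tested genes was 0.976 with GM, 0.966 with STHSC, 0.953 with ETP, 0.936 with LTHSC, 0.931 with GMP, 0.915 with CLP and 0.838 with ProE. Against CLP, 85.2% of the called genes were higher in LMPP, and against GM 19%. These shares moved with the scaling of the arrays. After quantile normalization the split, higher to lower, was 1846 to 1138 for CLP (2521 to 438 as deposited), 159 to 235 for GM (114 to 487) and 963 to 643 for MkP (1132 to 410). It was 983 to 672 for ETP (670 to 993), 1080 to 1116 for GMP (870 to 1480), 1876 to 1433 for CD4 (1555 to 1932), 1660 to 1399 for CFUE (1483 to 1976), 1836 to 1606 for NKmature (1384 to 2223) and 1519 to 1094 for PreB (1244 to 1511). The larger side also turned for MkE, 961 to 725 (835 to 926), PreCFUE, 1336 to 1089 (1241 to 1382), ProB, 1497 to 1279 (1258 to 1432), and ProE, 1949 to 1516 (1797 to 2058). The median of all genes against CLP was 0.10 as deposited, 0 after quantile normalization and 0.27 with arrays centred on their medians, and against GM -0.08, 0.02 and -0.18.

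**Figure D4:**
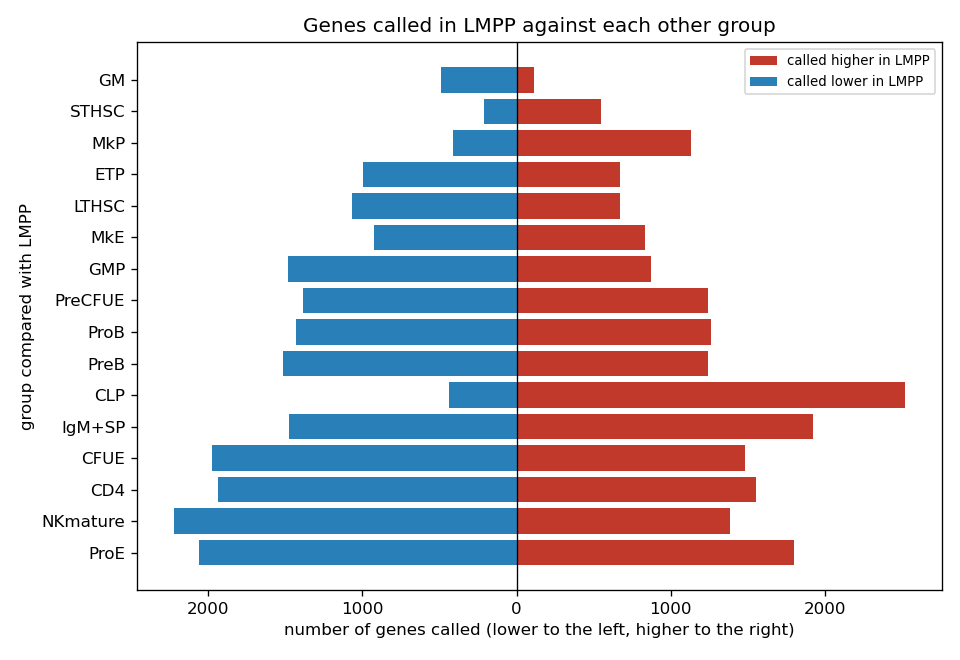
Number of genes called higher (bars to the right) and lower (bars to the left) in LMPP than in each of the 16 groups, over 13948 genes. GM (114 and 487) and STHSC (547 and 209) give the shortest bars and ProE (1797 and 2058) the longest.

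Compared with GM, most primary granule genes were lower in LMPP. Of the genes tested, 114 were higher (0.817%) and 487 lower (3.49%). Of 8 primary granule genes 5 were lower and 0 higher, with a median of -2.29. They included Ctsg (-3.36 ± 0.56), Elane (-2.49 ± 0.30), and Ms4a3, a membrane protein of granulocyte precursors, at 4.12 on average against 7.67 (-3.56 ± 0.29). Cebpa, the factor that starts the granulocyte programme, was at 4.91 to 5.35 in LMPP against 7.23 in GM (-2.12 ± 0.21, adjusted p = 6.28e-09). Among the 4 largest falls, F13a1, a coagulation factor of monocytes and platelets, gave -4.95 ± 0.50, and Car1 and Cpa3 gave -4.44 ± 0.51 and -4.07 ± 0.30. Selp, the adhesion molecule P-selectin, was also lower (-3.48 ± 0.29), as were Klf1 (-2.29 ± 0.44) and Aqp1 (-2.38 ± 0.36), among 6 of 16 erythroid genes. Of 11 late neutrophil genes only Hp, haptoglobin, was lower (-3.36 ± 0.39), and 0 were higher. Of 16 megakaryocyte genes 3 were lower and 1 higher, and 2 and 0 without GM replicate 1 or 2.

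In the other direction, the early lymphoid list had 1 of 15 members higher than in GM and 0 lower (median 0.55). Nusap1 was higher (1.93 ± 0.35), 1 of 4 mitosis genes. The lymphoid count was 0 without GM replicate 1 or 2 or LMPP replicate 1, 2 without LMPP replicate 2 or 5, and 3 without LMPP replicate 3. The mitosis count was 2 without GM replicate 1 or LMPP replicate 4 or 5, 1 without GM replicate 2, and 7 without LMPP replicate 3. All GM arrays had Xist without Eif2s3y, and Eif2s3y was itself among the 4 largest rises (5.14 ± 1.07), lost without GM replicate 1 (4.98). Kdm5d, also Y-linked, was another of these 4 (3.32 ± 0.77). The other 2 were Egr1, an immediate early factor, and Ccl3 (4.14 ± 0.98 and 4.21 ± 0.92). The calls of Egr1 and Ccl3 were lost without GM replicate 1 (3.84 and 4.17) or 2 (4.43 and 4.24). Counts for GM were 25 higher and 158 lower without its replicate 1, and 29 and 159 without its replicate 2.

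Against STHSC 547 genes were higher (3.92%) and 209 lower (1.5%). Ddx4 was at 2.76 in STHSC, a difference of 4.88 ± 0.42, the largest, and Emp1, an epithelial membrane protein, followed among the 4 largest (4.67 ± 0.62). Of 22 cytokine receptors 8 were higher and 2 lower, including Il1r1 (2.18 ± 0.34) and Il6ra (2.32 ± 0.43). That count was 4 and 1 without STHSC replicate 1 and 5 and 0 without STHSC replicate 2. Tlr7 was also higher (1.97 ± 0.33), a call lost with probe set means (0.94). Apoe, the lipid carrier apolipoprotein E, was among the largest falls (-4.87 ± 0.37). Of the stem cell list 0 were higher and 8 of 21 lower (5 without STHSC replicate 2), while Hlf (-0.31 ± 0.22), Meis1 (-0.70 ± 0.29), Procr (-0.80 ± 0.35) and Mecom (0.13 ± 0.39) were not called. Without STHSC replicate 1, 181 genes were higher.

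Against LTHSC the stem cell list gave the plainest difference, with 20 of 21 members lower and 1 higher, Cd34 (median -3.25). Over all genes 671 were higher (4.81%) and 1069 lower (7.66%). Vwf was at 2.38 to 3.43 in LMPP against 10.01 (-7.04 ± 0.42), Esam, an endothelial adhesion molecule, at 4.31 to 4.89 against 8.50 (-3.85 ± 0.23), Fgd5, a Cdc42 exchange factor of stem cells, at 3.95 to 6.02 against 8.73 (-3.82 ± 0.28) and Slamf1 differed by -3.25 ± 0.21. No LMPP array overlapped LTHSC for these. Cdkn1c, the cycle inhibitor p57, was at 3.41 to 4.43 against 7.64 (-3.67 ± 0.24). All 18 mitosis genes were higher, with a median of 2.98, among them Cep55 (4.51 ± 0.43), and 16 of 21 replication genes, with a median of 1.29. The replication count was 9 without LTHSC replicate 1 and 7 with probe set means (median 0.83). The mitosis count did not move by over 1.5 times without any 1 array. Of the early lymphoid list 7 of 15 were higher (median 1.53), and Irf8, a factor of monocytes and lymphoid cells, was at 8.26 to 10.10 against 5.12 (4.23 ± 0.35). Of 16 erythroid genes 11 were lower (6 without LTHSC replicate 2).

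CLP, the common lymphoid progenitor in common use, exceeded LMPP in genes of the B lineage. Over all genes 2521 were higher in LMPP (18.1%) and 438 lower (3.14%), and 825 lower without CLP replicate 1. Ebf1 was at 2.55 to 3.02 in LMPP and 10.6 in CLP (-7.88 ± 0.43). Rag1 differed by -5.53 ± 0.43, Vpreb1, part of the surrogate light chain, by -4.90 ± 0.35, Il7r by -4.72 ± 0.64 and Blnk, a linker of the pre-B receptor, by -4.03 ± 0.34. None of these overlapped between the groups. Of 16 B lineage genes 9 were lower and 0 higher, with a median of -1.16, and of 15 early lymphoid genes 6 were lower and 0 higher. In turn some stem cell genes were higher in LMPP, 9 of 21 with 0 lower, and so was the granule gene Prtn3. Of 16 monocyte and macrophage genes 4 were higher and 1 lower, where 18.1% of all genes were higher. Hlf was at 9.06 to 9.97 against 5.10 (4.32 ± 0.22), Procr differed by 3.81 ± 0.35, Mecom by 2.99 ± 0.39, Kit by 2.80 ± 0.45 and Prtn3 by 5.44 ± 0.47. Of 18 mitosis genes 17 were higher, with a median of 2.36.

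ETP, by common use the early T lineage progenitor, differed from LMPP in some NK, stem cell and receptor genes, and in single T genes. Over all genes 670 were higher (4.8%) and 993 lower (7.12%). Of 14 T lineage genes 1 was lower and 0 higher (median 0.02), which is near the share of all genes. Of 13 NK genes 3 were lower and 0 higher (median -0.13). The T lineage count was 2 without ETP replicate 1 or 3 or LMPP replicate 2 or 4, and 3 without LMPP replicate 3. With an intensity floor of 16 that count was 0, and Cd5 lost its call (-0.77). Lower in LMPP were a T receptor beta segment Trbv1 (-8.80 ± 0.45), Fasl, the death ligand of killer cells (-5.62 ± 0.32), Klrd1, an NK receptor chain (-4.01 ± 0.54), Cd5 (-1.74 ± 0.17) and Notch1 (-1.82 ± 0.24). Cpa3 was at 3.42 to 3.91 in LMPP against 10.06 in ETP (-6.41 ± 0.26). Higher were Hlf (4.53 ± 0.19), Mecom (3.76 ± 0.34), Il6ra (2.96 ± 0.37), Csf3r (2.66 ± 0.28), Flt3 (2.43 ± 0.29) and Sdc1, the surface proteoglycan syndecan 1 (4.35 ± 0.25). The cytokine receptor list had 4 members higher and 4 lower (median 0.06). The lower ones were Csf1r (-1.61 ± 0.54), Il7r (-1.42 ± 0.56) and the transforming growth factor beta receptors Tgfbr1 (-1.36 ± 0.28) and Tgfbr2 (-1.38 ± 0.24). That count was 5 and 2 without ETP replicate 1 or LMPP replicate 3. Il7r lost its call without ETP replicate 1, 2 or 3, without LMPP replicate 1, 2 or 3, and with probe set means (-0.38). Tgfbr1 (-0.66) and Tgfbr2 (-0.47) lost theirs with probe set means. Csf1r lost its call without ETP replicate 1 (-1.45) or LMPP replicate 3 (-1.36). Of 21 stem cell genes 7 were higher and 2 lower, and of 18 mitosis genes 15 were higher.

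Against GMP, the granulocyte and monocyte progenitor in common use, LMPP was high in lymphoid and class II genes and low in granule genes. Over all genes 870 were higher (6.24%) and 1480 lower (10.6%). Of 15 early lymphoid genes 13 were higher and 0 lower (median 1.46), led by Dntt at 11.63 to 13.00 against 4.85 (7.66 ± 0.37). Of 9 class II genes 7 were higher and 0 lower (median 2.48), and 10 of 21 stem cell genes were higher, such as Meis1 (3.74 ± 0.25). Of 8 primary granule genes 7 were lower (median -3.23). Ms4a3 was at 4.12 on average against 11.27 (-7.15 ± 0.25) and Ctsg differed by -4.24 ± 0.49. Of 16 monocyte genes 7 were lower and 0 higher. Leaving out any 1 array moved these list counts by at most 1.5 times, except that 1 monocyte gene was higher without GMP replicate 3. The early lymphoid count fell to 7 with LMPP replicates 1 and 2 only (median 1.26) and with replicates 1 to 3 only (median 1.13).

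Against the megakaryocyte and erythroid groups, erythroid genes were lower and early lymphoid genes higher in all 5 comparisons. Megakaryocyte genes were lower in that with MkP. The erythroid list had 12 of 16 members lower against MkE, 14 against PreCFUE, 14 against CFUE and 16 against ProE, where 6.64%, 9.91%, 14.2% and 14.8% of all genes were lower. Its median went from -3.98 in MkE to -6.74 in ProE. Against MkP 8 of 16 erythroid genes were lower and 0 higher (median -0.9), where 2.94% of all genes were lower. Car1 gave -9.43 ± 0.44 against CFUE, and Slc4a1, the red cell anion exchanger, -8.93 ± 0.56 against ProE. Against MkP, 13 of 16 megakaryocyte genes were lower (2.94% of all genes), with Vwf at -8.23 ± 0.36, Pf4, platelet factor 4, at -7.79 ± 0.70 and Itga2b at -5.64 ± 0.24. Against MkE the megakaryocyte list had 4 members lower and 2 higher (median -0.19). The early lymphoid list had 13 of 15 members higher against MkE (5.99% of all genes) and PreCFUE (8.9%), and 12 against CFUE (10.6%), MkP (8.12%) and ProE (12.9%), with 0 lower in all 5. Cd34 was higher than in CFUE by 8.04 ± 0.21, Satb1 by 7.67, and Plac8, a small protein of immune and progenitor cells, was higher than in ProE by 8.06 ± 0.18.

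Against mature and B-committed lymphocytes more stem cell genes were higher than lower. Of 21, 12 were higher and 0 lower against PreB, ProB and NKmature, 13 and 2 against CD4, and 11 and 1 against IgM+SP. Hoxa9 was higher in LMPP than in CD4 by 8.09 ± 0.42, and Cd34 than in PreB by 7.92 ± 0.19, in CD4 by 7.90 ± 0.24 and in ProB by 7.37 ± 0.24. Of 16 B lineage genes 15 were lower than in PreB (10.8% of all genes) and 14 than in IgM+SP (10.6%), with Pou2af1 at -9.27 ± 0.24 against PreB and Ms4a1, the B antigen CD20, at -9.25 ± 0.59 against IgM+SP. Of 14 T lineage genes 12 were lower than in CD4 (13.9%), with Cd3g, a chain of the T receptor complex, at -8.05 ± 0.22. All 13 NK genes were lower than in NKmature (15.9%) and all 13 were lower than in ProB (10.3%), in which the largest falls were Igha, Klra8, Klrd1 and Gzma. All 7 plasmacytoid genes were lower than in ProB too. The mitosis list separated these groups, with all 18 members higher than in CD4 (11.1% of all genes; median 3.93) and in IgM+SP (13.8%), 14 than in ProB (9.02%), 1 than in NKmature (9.92%) and none than in PreB (8.92%).

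Some genes divided the 5 LMPP arrays rather than LMPP from other groups. On the immediate early and stress list, genes that cells switch on within minutes of a stimulus, the mean level was 9.47, 9.08, 9.23, 4.96 and 5.00 in replicates 1 to 5. Fos, a subunit of the factor AP-1, was at 13.04, 13.20, 13.26, 3.86 and 4.28, and Jun, its partner, at 11.39, 11.46, 10.17, 3.49 and 3.21. Replicates 1 to 3 were high and replicates 4 and 5 low, with a wide gap between them. The first 3 lay at the level of LTHSC (8.71 to 9.58) and STHSC (9.05 to 9.33), and the last pair at that of GM (5.02 to 5.11). Against the mean of the other groups 4 of 17 members were higher and 1 lower, a count that was 13 and 0 with replicates 1 to 3 only, 0 and 1 with replicates 3 to 5 only, 12 without replicate 4, 11 without replicate 5, and 1 without replicate 1, 2 or 3. Against GM 8 of 17 were higher. That count was 0 without GM replicate 1 or 2, 3 without LMPP replicate 1, 2 or 3, and 13 without LMPP replicate 4 or 5.

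Late neutrophil granule genes split the same arrays the other way. Their mean level was 3.71, 3.83, 3.91, 6.84 and 6.88. S100a8, a calcium-binding protein of neutrophils, was at 3.66, 3.45, 3.44, 9.85 and 9.79, Ngp, a granule protein, at 4.39, 4.77, 5.05, 10.30 and 10.50, and Ltf, lactoferrin, at 3.15, 3.60, 3.70, 7.5 and 6.92. Replicates 4 and 5 lay at the level of GM (5.81 to 6.94) and below GMP (7.02 to 7.31) in the list mean, and replicates 1 to 3 at that of STHSC (3.87 to 3.95). All 11 members are measured, and Ltf and Ngp, which mature neutrophils are known for, were dim or low on replicates 1 to 3. The part of neutrophils or their RNA in the results on replicates 4 and 5 was not tested.

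Some lymphoid genes and Cxcr4 took part in the split. Il7r, as given above, was high on replicates 4 and 5, and so was Cxcr4, the chemokine receptor that retains cells in the marrow, at 7.61, 6.02, 5.76, 9.58 and 10.10. Cd48 went the other way, as given above, and the homing and adhesion list mean was 6.06 to 6.68. Id2, an inhibitor of E proteins, was at 5.32, 4.40, 4.82, 7.91 and 7.85, and the early lymphoid list mean was 7.30, 6.93, 6.33, 7.85 and 7.77. Its lowest LMPP array still lay above LTHSC (5.23 to 5.51), STHSC (5.01 to 5.30) and GMP (5.17 to 5.34), and its highest below CLP (8.89 to 9.05). Pgr, the progesterone receptor, instead followed the class by Xist, at 3.88, 3.04, 6.83, 6.55 and 6.91. The mitosis list mean (8.52 to 9.07), the stem cell list mean (5.93 to 6.46) and the erythroid list mean stayed close together.

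**Figure D5:**
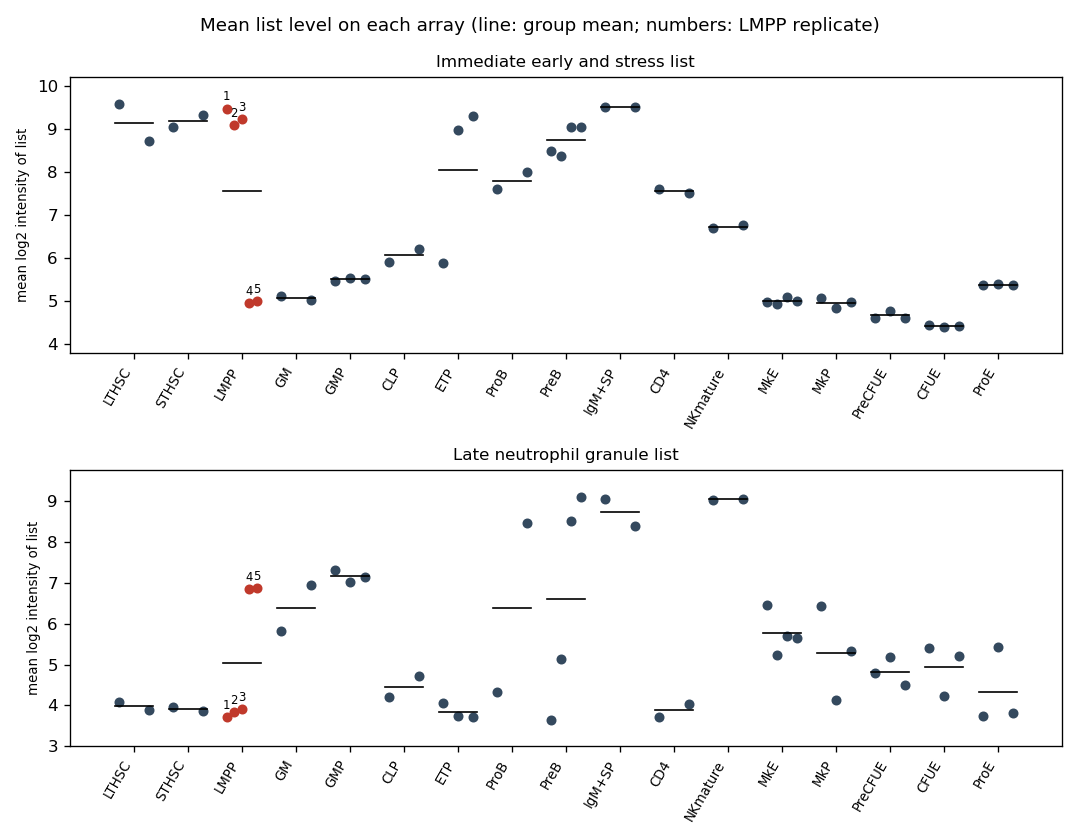
Mean log2 intensity of the immediate early and stress list and of the late neutrophil granule list (vertical axes) on each array by population, with LMPP points marked by replicate number. LMPP replicates 1 to 3 lie at 9.08 to 9.47 and replicates 4 and 5 near 5 in the first panel, and the order is turned in the second.

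By the correlation of group means over the 17 groups, the genes most like Flt3 were Myl10, a myosin light chain (0.948), Arhgap32 (0.92), Rasa4, a Ras GTPase activator (0.915), Auts2 (0.887) and Mn1 (0.884). The genes most like Dntt were Myl10 (0.885), Flt3 (0.859), Sstr2 (0.856), Arpp21 (0.846) and Acvr2a, an activin receptor (0.837). Myl10 was at 5.39, 4.95, 5.32, 7.02 and 6.65 in LMPP, highest on replicates 4 and 5, and second after CLP (6.19), with a difference of 1.59 ± 0.23 from the mean of the other groups. These correlations describe means that share arrays and scaling, with no test.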

How the data were processed

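Affymetrix arrays of 47 samples were measured once each, in 17 groups taken from the sample titles. Each deposited value is a linear intensity of 1 probe set on 1 array, which the authors made with RMA, as the design text states. Which software was run and how arrays were scaled to one another is not stated in the labels or the files. The median intensity of an array was 13.8 to 16.9. Precision depends on how many arrays a group has.

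Log2 was taken with no pseudocount. Of 45101 probe sets, 34958 had 1 gene symbol in the platform annotation, 932 had several, and 9211 were not listed and are unnamed. The brightest probe set over all arrays stood for each of 18193 genes, 9010 of which had several. The 13948 genes with a group mean over 3.889 were tested with limma 3.58.1 in R 4.3.3, with 17 group means, no covariate and 30 residual degrees of freedom. The contrasts were LMPP minus the equal-weight mean of the other 16 groups and LMPP minus each group. A gene was called highest or lowest where all 16 contrasts were called. The fit was tested on simulated data first.

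The named genes were the 15 largest rises and falls among called genes whose LMPP arrays did not overlap at least 14 groups, the genes highest or lowest of all groups, the 4 largest rises and falls against each group, members of 22 gene lists (317 of 341 genes measured), the markers, and the 5 genes most like Flt3 and Dntt. Symbols of clones and gene models were counted and, with the 1 exception stated, not named. Members and lists were chosen with earlier results of these data known, so no list was given a p-value. Alternatives were probe set means, a stricter filter (5.968) and none, quantile normalization, centring, a floor of 16, a trended robust spread, the replicate number or the sex class as a block, subsets of the LMPP arrays, other weights, fits of both groups alone, and leaving out each array. The sex class of an array was set by Xist over 7 and Eif2s3y over 5. Its block rests on PreB, ETP and LMPP, the only groups with arrays of more than 1 class. Deviations from the group means were compared between same-numbered LMPP and other arrays. They correlated over 0.1 in 12 of 42 pairs (-0.306 to 0.352), and in every pair only for PreB (0.13, 0.227, 0.298 and 0.352). The labels tie no numbers together, so only the PreB comparison was taken as possibly paired. Leaving out ProB, and the LMPP subsets in single-group comparisons, were chosen after seeing the data. Promoter sequences are RefSeq's for GRCm38.p6.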

Additional observations from a re-analysis of the deposited data

Results flagged for a closer look

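In 4 of 49 levels examined on the LMPP arrays, 1 array lay further from the other 4 than Dixon's critical value for 5 samples (0.71) allows, and chance alone gives this in about 1 in 20. Ccl9 was at 10.63 on replicate 2, a gap of 0.894 of the range. Ctu2, a tRNA thiolation enzyme that was lower in LMPP than in the mean of the other groups (-1.06 ± 0.13), was at 8.78 on replicate 5, a gap of 0.71, against 8.54 to 8.61 on the rest. The mean level of the cytokine and growth factor receptors was 6.61 on replicate 3, a gap of 0.871, with the others at 6.99 to 7.05. The mean level of the plasmacytoid dendritic list was 4.9 on replicate 3, a gap of 0.72. Replicate 3 was thus the low array in 2 of the 4.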

How the results depend on the processing

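Counts of called genes are given as higher and lower in LMPP, and each moved by over 1.5 times from the count in the report. With the mean of all probe sets they were 314 and 161 against the mean of the other groups, 0 lowest of all groups, 1670 and 255 for CLP, 69 and 256 for GM, 577 lower for ETP, 934 for GMP, 566 for MkE and 263 for MkP, and 395 higher for LTHSC, 811 for ProB and 225 for STHSC. Quantile normalization gave 1138 lower for CLP, 235 for GM and 643 for MkP, and centring 283 lower for CLP. With the sex class as a block, 1125 and 788 were called against the mean, 0 lowest, 1730 and 1698 for GM, 2428 and 1831 for MkE, 3150 and 1387 for MkP, and higher 2385 for CD4, 2410 for CFUE, 2427 for PreCFUE, 2196 for ProB and 330 for STHSC. That block turned the sign of Ccr9 (-2.38), Csf1r (-0.25), Hspa1a (-3.18), Hspa1b (-3.38), Ikzf2 (-0.60), Lyz2 (-0.54) and Mpeg1 (-0.16) against the mean, of Eif2s3y (-1.57) and Kdm5d (-1.16) against GM, and of the margin of Tnk2 (0.48). LMPP replicates 1 and 2 alone gave 607 lower against the mean, 7 highest, 0 lowest, 58 and 11 genes with these arrays above or below all 42 others, 196 and 130 for STHSC, and 235 and 988 for GM. Replicates 3 to 5 alone gave 7 highest, 11 above and 7 below, 990 and 555 for STHSC, and turned Fosb to -0.21. Replicates 1 to 3 alone gave 441 lower against the mean, 0 lowest, 13 above, 789 lower for GM, and 247 and 129 for STHSC. Fits of both groups alone gave 56 and 306 for GM, and 152 and 74 for STHSC. Leaving out each array in turn gave 0 to 1 lowest of all groups, 5 to 9 above and 1 to 2 below all 42 others, 436 to 825 lower for CLP, 25 to 141 higher and 158 to 588 lower for GM, 443 to 954 higher for LTHSC, and 181 to 768 higher for STHSC. The array behind each end that moved was CLP replicate 1, GM replicates 1 and 2, LTHSC replicate 1 and STHSC replicate 1, and for the genes above and below, LMPP replicate 3 and LMPP replicates 1 or 2. Against the mean the range was 494 to 529 higher and 258 to 306 lower, and 4 to 6 genes were highest. The replicate number as a replicate block gave 0 lowest and 305 higher for STHSC, where it is no pairing, and 1252 and 1571 for PreB, where it may be one (1244 and 1511 without it). With ProB left out 518 were higher and 278 lower. Of all other values computed under an alternative, 799 counts stayed within 1.5 times, and of the values of single genes 270 lost their call, 257 gained one and 21841 did neither. The causes of these shifts were not tested, beyond the fewer arrays of the subsets. Dim levels limit the falls, as a gene under 3.889 in LMPP has no measured distance to lower groups. Groups of 2 arrays rest on the spread of all 47.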

Other observations

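Some surface, matrix and other genes besides the listed receptors added to the genes that were higher in LMPP than in the mean of the other groups. Egfl7, a secreted protein of endothelial and progenitor cells, had its highest group mean in LMPP by 2 of its 4 probe sets (2.37 and 2.26 against the mean of the other groups). Epb41l3, a membrane skeleton protein, was highest in LMPP too by its brightest probe set (2.13). Ctxn1 (1.45) also had its highest group mean in LMPP, as did Gcsam (1.62) by the brighter of its 2 probe sets, at a mean level of 4.45. These genes were picked after their values were seen and carry no test beyond the fit, and other groups overlapped LMPP for each of them.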
